A study of Mus musculus with 2 samples.

Results

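The genes described here are Synpo2, the gene of synaptopodin 2, with 9 genes chosen as its family and as its binding partners at the Z-disc: Synpo2l and Synpo (synaptopodins), Myot (myotilin), Myoz1, Myoz2 and Myoz3 (myozenins), Flnc (filamin C), Actn2 (alpha-actinin 2) and Ldb3. They were taken by gene name, 10 of the 34745 genes in the table, and each name had a single gene model. Synpo2 was selected on its large difference in counts between the libraries, the measured value that chose it, and the other 9 were chosen by family and binding; the difference of Synpo2 is given as a description and supports nothing else. The RNA was total RNA of the gastrocnemius, a calf muscle, of mice, with 1 sequencing library in each of 2 groups. The TECRLscko library came from mice whose Tecrl knockout is restricted to satellite cells, which are muscle stem cells, made with Cre expressed from Pax7 and conditional TECRLflox/flox alleles. The control was TECRLflox/flox muscle, so that both groups derive from the same conditional allele. Whether controls carried Cre, the age and number of the mice and any injury are not stated in these sources. With 1 library per group no test was possible and no p-value is given. Each interval covers counting error only, and each difference is between these 2 libraries.

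The Z-disc is the boundary of the sarcomere, where actin filaments of neighbouring sarcomeres are anchored and crosslinked by alpha-actinin. Synaptopodins, myotilin, myozenins, filamin C and the PDZ and LIM domain protein encoded by Ldb3 bind alpha-actinin or one another there and tie the lattice to signalling and to protein turnover. Synaptopodin 2, also called myopodin, bundles actin, is found in smooth as well as striated muscle, and works with the co-chaperone BAG3 in the removal of damaged filamin.

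The TECRLscko library held 16946124 counts and the TECRLflox/flox library 19281017 counts. Genes that define skeletal muscle took 10.2% and 11.7% of these counts, and none of the 10 such markers was at 0. Tecrl had 4 counts in the TECRLscko library and 3 in the TECRLflox/flox library, too few to check the deletion. Ratios between the libraries went with transcript length: their log2 median was 0.33 over the 10% of genes with the longest transcripts and -0.17 over the 10% with the shortest, beside -0.02 over the 12559 genes whose CPM (count scaled to library size) averaged at least 1. Log2 ratios were therefore also computed after a correction for this trend and for GC content.

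Synpo2 was far more abundant in the TECRLscko library, while the other synaptopodins were lower there. Synpo2 (ENSMUSG00000050315, chromosome 3, 123076519 to 123236149, GRCm38, minus strand) had 12840 counts, or 776 CPM, in the TECRLscko library against 360 counts, or 18.2 CPM, in the TECRLflox/flox library. That is 42.5-fold higher, with an exact 95% counting interval of 38.3 to 47.4. Synpo2 took rank 851 in the TECRLscko library and rank 10007 in the TECRLflox/flox library when all genes were ordered by the deposited FPKM, the count scaled to gene length and library size. Only 1 other gene model had a higher log2 ratio, Myh14 (ENSMUSG00000108439), on 662 against 2 counts. Synpo2l (ENSMUSG00000039376, chromosome 14, 20658946 to 20668354), a striated muscle relative of Synpo2, had 3755 counts in the TECRLscko library and 5054 in the TECRLflox/flox library, 1.13-fold lower (1.08 to 1.18). Synpo (ENSMUSG00000043079, chromosome 18, 60593973 to 60660142), best known from kidney podocytes and the dendritic spines of neurons, had 2082 counts in the TECRLscko library and 3625 in the TECRLflox/flox library, 1.46-fold lower (1.38 to 1.54). In RNA of whole muscle, a difference in the number of cells of a type and a difference in RNA per cell cannot be told apart, here and below.

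The make-up of the family differed accordingly. Synpo2 gave 68.7% of the synaptopodin counts in the TECRLscko library (95% Wilson interval 68.1 to 69.4), against 3.98% in the TECRLflox/flox library (3.60 to 4.41). Synpo2l gave 20.1% in the TECRLscko library and 55.9% in the TECRLflox/flox library. Its own CPM was only 1.13-fold lower, so its share moved with the Synpo2 counts, on which Synpo2 was selected. Per length, the summed FPKM of all 3 was 56.4 in the TECRLscko library and 29.6 in the TECRLflox/flox library, 1.90-fold higher. This fold depends on the gene lengths behind the FPKM, 22866 bases for Synpo2 and 32416 for Synpo. Their longest annotated transcripts have 9203 and 5159 bases. The number of Synpo2 counts per Synpo2l count, a quantity that does not depend on how the libraries are scaled, was 3.42 in the TECRLscko library and 0.0712 in the TECRLflox/flox library. The annotation lists 7 transcripts of Synpo2, 6 of them protein-coding, and the table gives no value per transcript. The 3 gene models that lie within Synpo2 had 0 counts in both libraries, so summing overlapping models left its counts as they were.

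**Figure D1:**
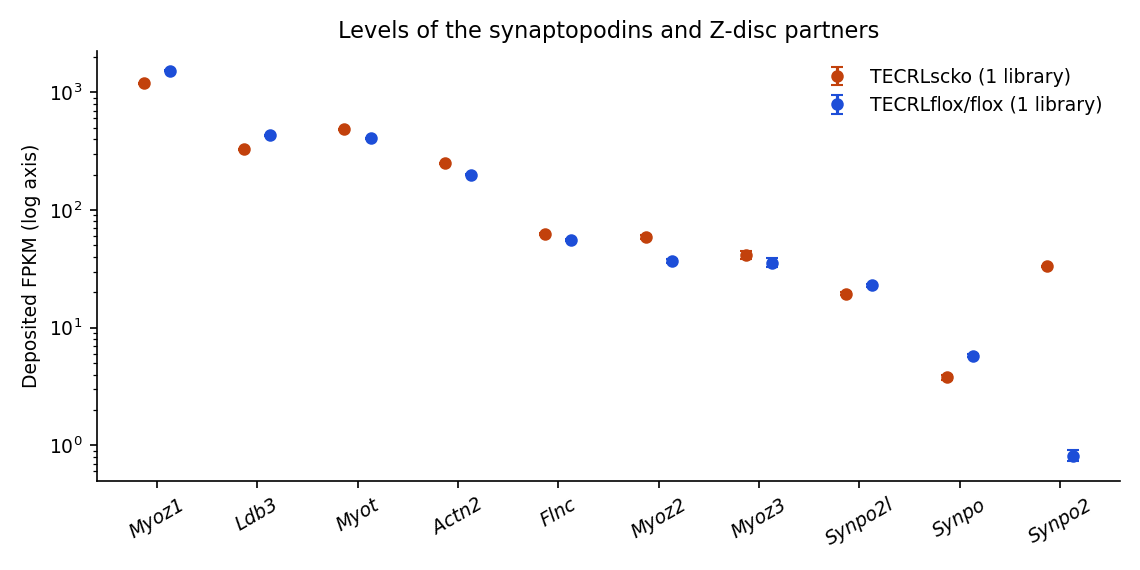
Deposited FPKM of the 10 members (log axis) in the TECRLscko library (orange, left of each pair) and the TECRLflox/flox library (blue, right), with 95% counting intervals that are mostly narrower than the points. Synpo2 stands at 33.1 in the TECRLscko library and 0.817 in the TECRLflox/flox library, and the points of every other member lie close together.

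Synpo2 and Myoz2 lie side by side on the same strand and both were higher in the TECRLscko library, so the sequence around their annotated starts is shown, with that of Synpo2l for comparison. The windows are RefSeq promoter windows (GRCm38.p6), 250 bases before to 50 bases after the start, read 5′ to 3′ on the minus strand: chr3:123236100-123236399 for Synpo2, chr3:123034938-123035237 for Myoz2 and chr14:20668305-20668604 for Synpo2l. Capitals mark matches of CTANNNNTAG, whose letters contain the core of the elements that MEF2 factors, regulators of muscle genes, are known to bind; in that core the middle letters are A or T, while the search allowed any.
Synpo2: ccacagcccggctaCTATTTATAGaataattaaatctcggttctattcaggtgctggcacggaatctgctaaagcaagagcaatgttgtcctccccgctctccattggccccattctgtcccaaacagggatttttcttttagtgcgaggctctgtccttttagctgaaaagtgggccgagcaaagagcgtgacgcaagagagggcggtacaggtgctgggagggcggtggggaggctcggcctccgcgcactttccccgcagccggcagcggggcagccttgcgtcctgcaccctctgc
Myoz2: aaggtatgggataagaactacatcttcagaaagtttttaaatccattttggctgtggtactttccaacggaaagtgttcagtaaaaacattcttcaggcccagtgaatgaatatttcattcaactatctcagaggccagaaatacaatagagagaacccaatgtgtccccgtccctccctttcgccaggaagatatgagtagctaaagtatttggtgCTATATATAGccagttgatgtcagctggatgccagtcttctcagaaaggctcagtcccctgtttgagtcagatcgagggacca
Synpo2l: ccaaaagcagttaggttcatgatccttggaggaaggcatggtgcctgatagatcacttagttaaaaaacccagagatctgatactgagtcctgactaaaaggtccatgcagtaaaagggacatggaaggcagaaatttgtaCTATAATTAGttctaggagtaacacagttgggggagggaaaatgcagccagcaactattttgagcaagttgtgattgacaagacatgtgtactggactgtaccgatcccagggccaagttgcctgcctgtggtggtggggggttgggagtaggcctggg
The match begins 236 bases before the start in Synpo2 (CTATTTATAG), 33 bases before it in Myoz2 (CTATATATAG) and 109 bases before it in Synpo2l (CTATAATTAG). A match was also present for Flnc (CTAAGACTAG) and Ldb3 (CTATTCTTAG), both with letters other than A and T in the middle, and none in the window of Actn2. That makes 5 of the 6 members with a window, and 6 of their 9 windows. Synpo2l, Flnc and Ldb3 each have a second window, and those of Synpo2l and Flnc held no match. By comparison, 4.23% of 27025 genes and 3.69% of 32851 windows of this length hold the letters, also with any middle letters. Because the motifs were chosen after the windows had been read, nothing is read from the share among the members. The CArG box, the element known to bind serum response factor, was found only in Ldb3 (CCATTTATGG, 35 bases before the start) and in 1.81% of genes. The E-box CANNTG was found in 4 of the 6 members, Synpo2, Synpo2l, Myoz2 and Actn2, and in 75.0% of genes. The 3 motifs read the same on both strands, no match of CTANNNNTAG overlapped one of the others in these windows, and they were chosen after the windows had been read. A match describes letters and shows no binding, and members with a match were higher (Synpo2, Myoz2, Flnc) as well as lower (Synpo2l, Ldb3) in the TECRLscko library.

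The myozenins tether the phosphatase calcineurin to alpha-actinin, and they did not go together. Myoz2 (ENSMUSG00000028116, chromosome 3, 123006206 to 123035015), the form of slow fibers and the heart, had 4357 counts in the TECRLscko library and 3100 in the TECRLflox/flox library, 1.68-fold higher (1.60 to 1.76). Myoz1 (ENSMUSG00000068697, chromosome 14, 20649102 to 20656540), a form of fast fibers and the most abundant member per length, had 26265 counts in the TECRLscko library and 38064 in the TECRLflox/flox library, 1.22-fold lower (1.20 to 1.23). Corrected for length and GC content, its log2 ratio of -0.28 came to -0.01, while that of Myoz2 was 0.74 before and 0.56 after it. Myoz3 (ENSMUSG00000049173, chromosome 18, 60576316 to 60591788), the other fast fiber form and the member with the fewest counts in the TECRLscko library, had 611 counts there and 600 in the TECRLflox/flox library, a CPM ratio of 1.21 (1.08 to 1.36).

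Within the libraries, Myoz2 gave 14.0% of myozenin counts in the TECRLscko library (13.6 to 14.3) and 7.42% in the TECRLflox/flox library (7.18 to 7.68). The number of Myoz2 counts per Myoz1 count was 2.04 times as high in the TECRLscko library, with a 95% Wald interval of 1.94 to 2.14 on the counts. Neither the shares nor this number are corrected for length and GC content, and the interval does not cover that trend. With the correction the log2 ratios of Myoz2 and Myoz1 were 0.56 and -0.01, closer together than 0.74 and -0.28 before it. The slow fiber list went the same way as Myoz2: all 13 of its genes were above the TECRLflox/flox library (48.2% of all genes were). By at least 1.5-fold 10 were higher (9.24% of all genes were). Their summed level was 6093 CPM in the TECRLscko library and 4064 CPM in the TECRLflox/flox library. Of the 13 fast fiber genes 12 were below the TECRLflox/flox library and none by 1.5-fold, with summed levels of 127038 CPM in the TECRLscko library and 143918 CPM in the TECRLflox/flox library. Their median log2 ratio of -0.28 was -0.12 after correction for length and GC content, with 3 of the 13 then above 0, and that of the slow fiber genes was 0.86 before and 0.97 after it. The part of fiber composition in the myozenin values was not tested.

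Of the genes that build and brace the actin lattice, 3 were slightly higher and 1 was slightly lower in the TECRLscko library. Actn2 (ENSMUSG00000052374, chromosome 13, 12269426 to 12340760), the alpha-actinin present in all fibers, had 19646 counts in the TECRLscko library and 17936 in the TECRLflox/flox library, 1.31-fold higher (1.28 to 1.33), and its log2 ratio of 0.38 was 0.54 after correction for length and GC content. Its fast fiber paralogue Actn3 stood at 5469 CPM in the TECRLscko library and 6742 CPM in the TECRLflox/flox library, a log2 ratio of -0.30 (-0.12 corrected). Counts of Actn2 per count of Actn3 were thus 1.61 times as high in the TECRLscko library (95% Wald interval 1.58 to 1.65). Myot (ENSMUSG00000024471, chromosome 18, 44334074 to 44355724), which crosslinks actin and binds filamin C, had 21618 counts in the TECRLscko library and 20632 in the TECRLflox/flox library, 1.25-fold higher (1.23 to 1.27), with a log2 ratio of 0.32 before and 0.38 after the correction.

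Flnc (ENSMUSG00000068699, chromosome 6, 29433256 to 29461883), the muscle filamin that connects Z-discs and the cell membrane, had 10809 counts in the TECRLscko library and 10899 in the TECRLflox/flox library, 1.18-fold higher once scaled to library size (1.15 to 1.21). Its transcript is long, and its log2 ratio of 0.24 was -0.11 after correction for length alone and 0.02 after correction for length and GC content. Ldb3 (ENSMUSG00000021798, chromosome 14, 34526699 to 34588681), whose PDZ domain binds alpha-actinin, had 34237 counts in the TECRLscko library and 51133 in the TECRLflox/flox library, 1.25-fold lower (1.24 to 1.27), a log2 ratio of -0.32 (-0.41 corrected). Counts of Myot per count of Ldb3 were 1.56 times as high in the TECRLscko library (1.53 to 1.60).

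**Figure D2:**
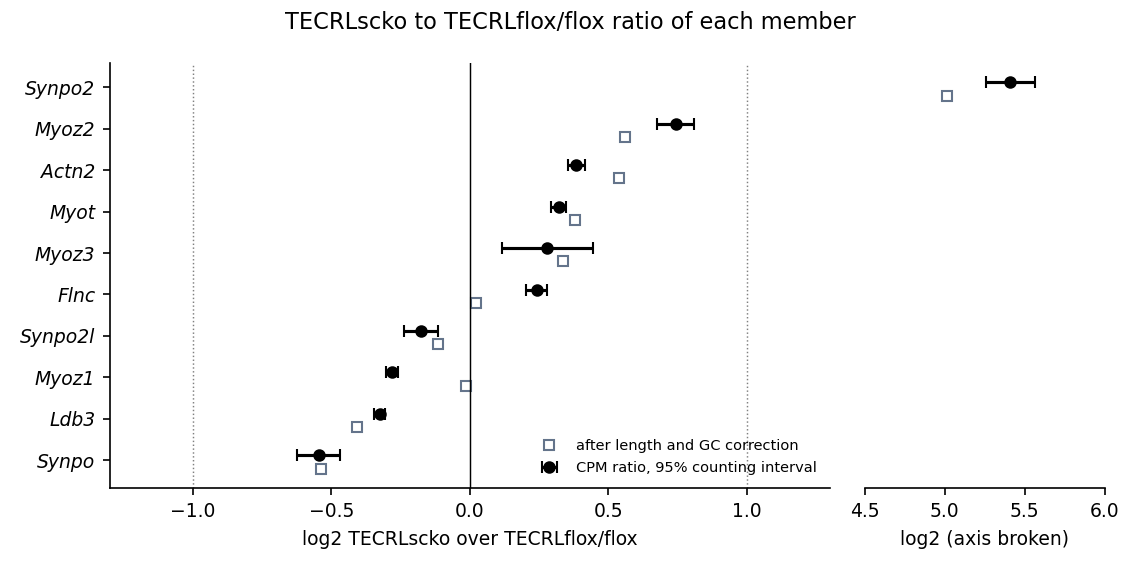
Log2 ratio of CPM, TECRLscko over TECRLflox/flox, for each member with its 95% counting interval (black), and the log2 ratio after correction for transcript length and GC content (open squares). The horizontal axis is broken between the 9 other members, all within 2-fold (dotted lines), and Synpo2; Myoz1 and Flnc move close to 0 with the correction.

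All 10 members reached the mean of 1 CPM required of genes compared. On the log2 scale with 0.5 CPM added to both values, 1 member, Synpo2, was at least 2-fold higher, beside 2.28% of all genes compared, and 0 members were at least 2-fold lower, beside 0.796%. Synpo2 was selected on this contrast, so nothing is read from that count. At 1.5-fold, 2 members were higher, Synpo2 and Myoz2, beside 9.24% of all genes, and 0 were lower, beside 3.88%. Myoz2 did not reach 1.5-fold after correction for length and GC content. Of the 9 members other than Synpo2, 5 were above the TECRLflox/flox library (48.2% of all genes compared were) and 4 below it. Their median log2 ratio was 0.24, beside -0.02 over all genes. The lowest of them was Synpo at -0.54 and the highest Myoz2 at 0.74. None of the 10 changed sign with total-count scaling, with DESeq2 size factors or with the deposited FPKM, as given or centred on its median.

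**Figure D3:**
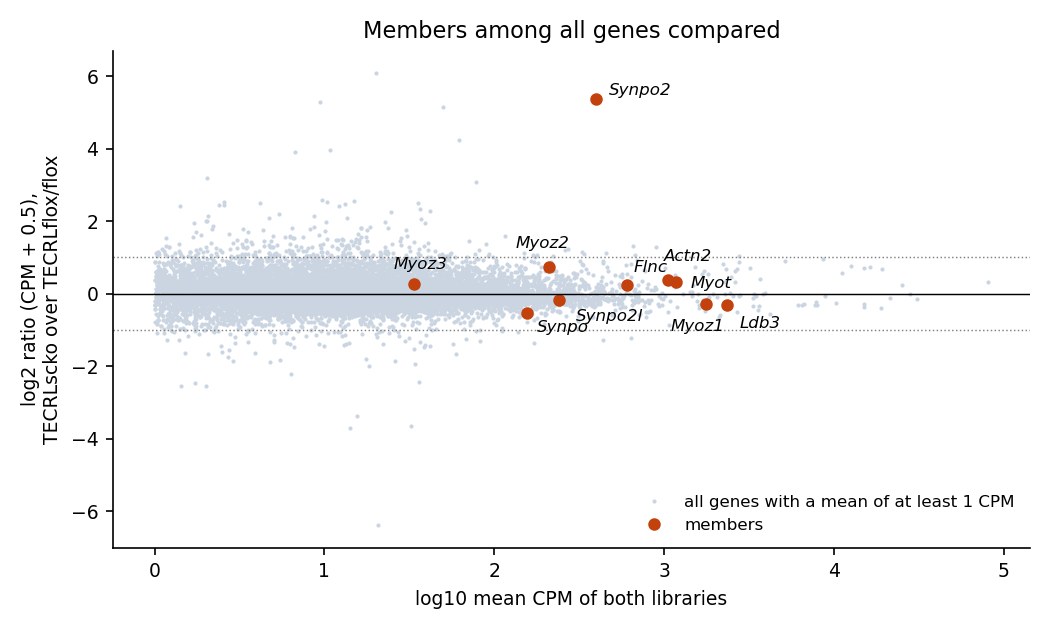
Log2 ratio (CPM plus 0.5), TECRLscko over TECRLflox/flox, against the mean CPM of both libraries (log10) for the 12559 genes compared (grey) and the 10 members (orange), with dotted lines at 2-fold. Synpo2 lies at 5.37 above nearly all genes, and the other members lie between -0.54 and 0.74.

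Per length, the levels of the members spanned a wide range. In the TECRLscko library the order by FPKM was Myoz1 (1198), Myot (485), Ldb3 (329), Actn2 (249), Flnc (62.6), Myoz2 (59.0), Myoz3 (41.4), Synpo2 (33.1), Synpo2l (19.4) and Synpo (3.79). In the TECRLflox/flox library it was Myoz1 (1526), Ldb3 (432), Myot (407), Actn2 (200), Flnc (55.5), Myoz2 (36.9), Myoz3 (35.8), Synpo2l (23.0), Synpo (5.80) and Synpo2 (0.817). Synpo2 thus had rank 8 of the members in the TECRLscko library and rank 10 in the TECRLflox/flox library, and Myot and Ldb3 stood in opposite order. The counting intervals of Myoz2 and Myoz3 overlapped in the TECRLflox/flox library, and those of all other neighbours in both orders did not. The order depends on the gene length behind the FPKM, which is 22866 bases for Synpo2, whose longest annotated transcript has 9203, and 870 bases for Myoz3, whose transcript in GENCODE M21 has 3436. Counted per longest transcript, Synpo2 took rank 6 of the 10 in the TECRLscko library and rank 10 in the TECRLflox/flox library, and Myoz3 took rank 10 in the TECRLscko library and rank 9 in the TECRLflox/flox library.

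Each synaptopodin gene has a myozenin gene as its neighbour on the same strand with no gene model of the table between them. The gap is 41.5 kb between Synpo2 and Myoz2, 2.41 kb between Synpo2l and Myoz1 and 2.18 kb between Synpo and Myoz3. Both genes were higher in the TECRLscko library in the first pair and both lower in the second (log2 ratios of -0.17 for Synpo2l and -0.28 for Myoz1), and in the third Synpo was lower and Myoz3 higher (-0.54 and 0.28). Around Synpo2, 7 genes within 250 kb had at least 1 CPM in either library, and their log2 ratios lay between -0.41 and 1.02 with a median of 0.13. The highest of them was Usp53, a member of the ubiquitin-specific protease family on the far side of Myoz2, with 317 counts in the TECRLscko library and 182 in the TECRLflox/flox library, 2.08-fold higher (1.73 to 2.51). Its log2 ratio was 1.02, and 0.55 once corrected for length and GC. Sec24d, the nearest gene upstream of Synpo2 and part of the COPII vesicle coat, had 249 counts in the TECRLscko library and 288 in the TECRLflox/flox library, a CPM ratio of 1.03 (0.867 to 1.23). Among the 14 neighbours of Synpo2l none and among the 10 neighbours of Synpo 1 (BC023105, 1.03) reached 2-fold in either direction. By the same margin, 2.28% of the 12559 genes compared were above the TECRLflox/flox library and 0.796% were below it.

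**Figure D4:**
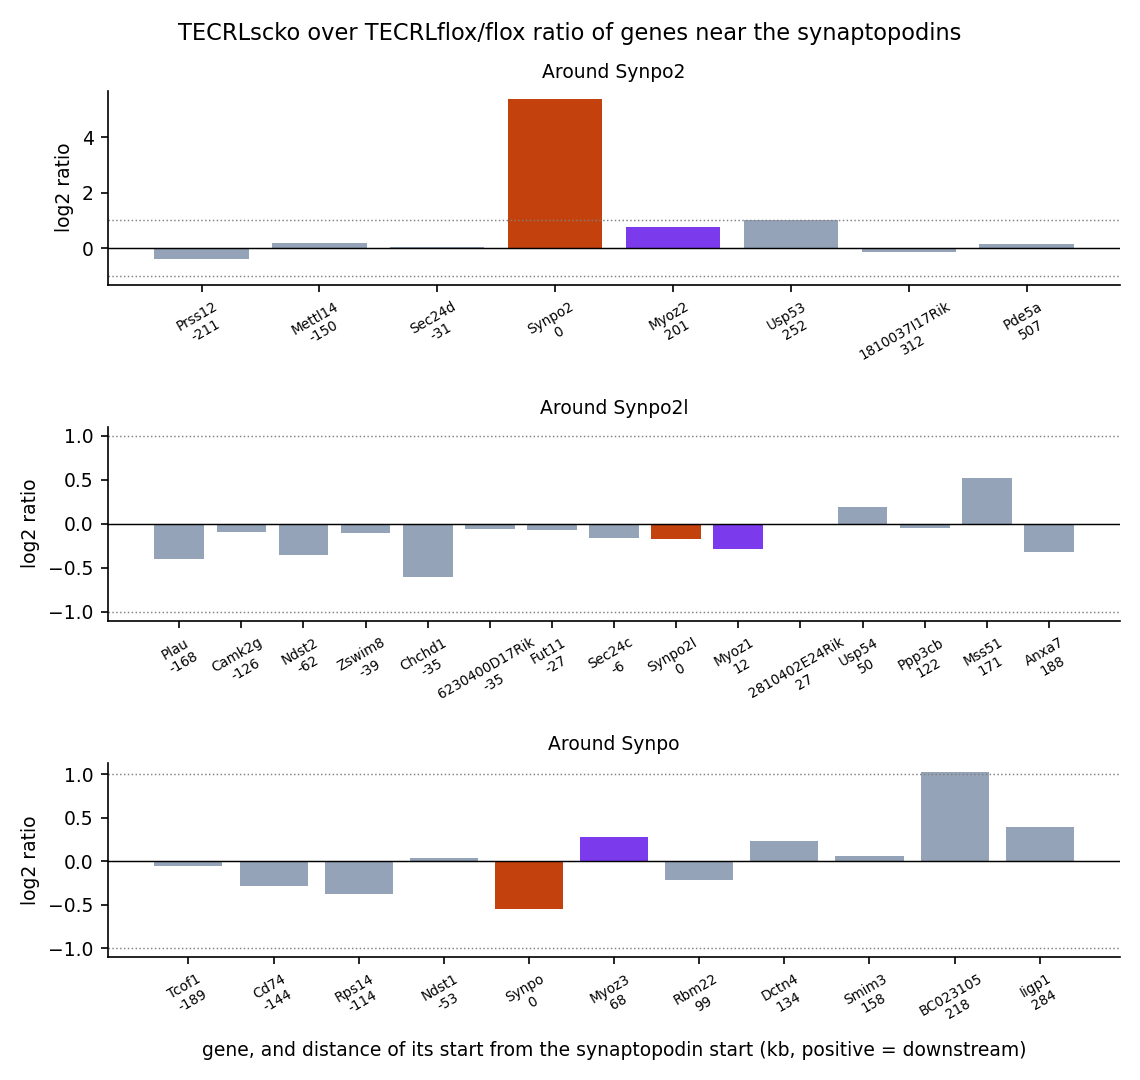
Log2 ratio (CPM plus 0.5), TECRLscko over TECRLflox/flox, of the genes within 250 kb of each synaptopodin gene, in order of the distance of their starts (kb, under each name), with the synaptopodin in orange, the myozenin in purple and dotted lines at 2-fold. Synpo2 stands at 5.37 among neighbours between -0.41 and 1.02; the vertical scales differ between panels.

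Other Z-disc genes were described as a list of 26, of which 24 were compared. In the TECRLscko library 13 were above the TECRLflox/flox library (48.2% of all genes were) and 11 below it. By 1.5-fold or more 7 were higher, beside 9.24% of all genes, and 1 was lower, beside 3.88%. The median log2 ratio of 0.11 stood beside -0.02 for all genes. It came to -0.03 when corrected for length alone and to 0.07 when corrected for length and GC content. The greatest ratios belonged to Fhl1 (1.27), a LIM domain protein, the actin-binding Xirp2 (0.92), the giant proteins nebulin, Neb (0.87), and titin, Ttn (0.81), and muscle LIM protein, Csrp3 (0.69). Igfn1, named after its value was seen, was the lower gene (-0.60). With length and GC content corrected for, Fhl1 stood at 1.39, Xirp2 at 0.27, Csrp3 at 0.78, Neb at 0.15 and Ttn at -0.27. Then 3 of the list were at least 1.5-fold higher (Fhl1, Csrp3 and Ankrd2 at 0.90) and 1 lower (Igfn1 at -0.84). The shares of 9.24% and 3.88% are of uncorrected ratios and cannot be set beside these counts. Fhl1 had 20894 counts in the TECRLscko library and 10298 in the TECRLflox/flox library.

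Paralogues of the partners, 13 actinin, filamin, palladin and PDZ-LIM genes, stayed within 1.5-fold. Of these, 8 were above the TECRLflox/flox library (48.2% of all genes were) and 5 below it, with a median of 0.06. They ran from Pdlim7 (-0.33) to Pdlim1 (0.37). In the list of chaperone-assisted selective autophagy, the route by which BAG3 and synaptopodin 2 are known to clear filamin, 6 of 8 genes were below the TECRLflox/flox library, with a median of -0.32 (-0.13 after the correction). Hspb8, the small heat shock protein that partners BAG3, was the 1 gene at least 1.5-fold lower (3.88% of all genes were). It had 394 CPM in the TECRLscko library and 597 CPM in the TECRLflox/flox library. Its log2 ratio of -0.60 came to -0.37 with the correction, which left 0 genes of the list at 1.5-fold. Bag3 itself stood at -0.19 and turned to 0.02 with the correction. The ubiquitin ligase gene Stub1 stood at -0.40 (-0.13 corrected) and the chaperone gene Hspa8 at 0.08 (0.06 corrected). The lists overlap: Actn3, Mypn, Palld, Pdlim1, Pdlim3, Pdlim5 and Pdlim7 are in both the Z-disc and the paralogue list. Actn3 is also a fast fiber gene, Csrp3 is in the Z-disc and slow fiber lists, and Flna is in the paralogue and autophagy lists. Of the skeletal muscle markers, Myh1, Myh4, Tnnt3 and Casq1 are also in the fast fiber list and Mb in the slow fiber list.

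**Figure D5:**
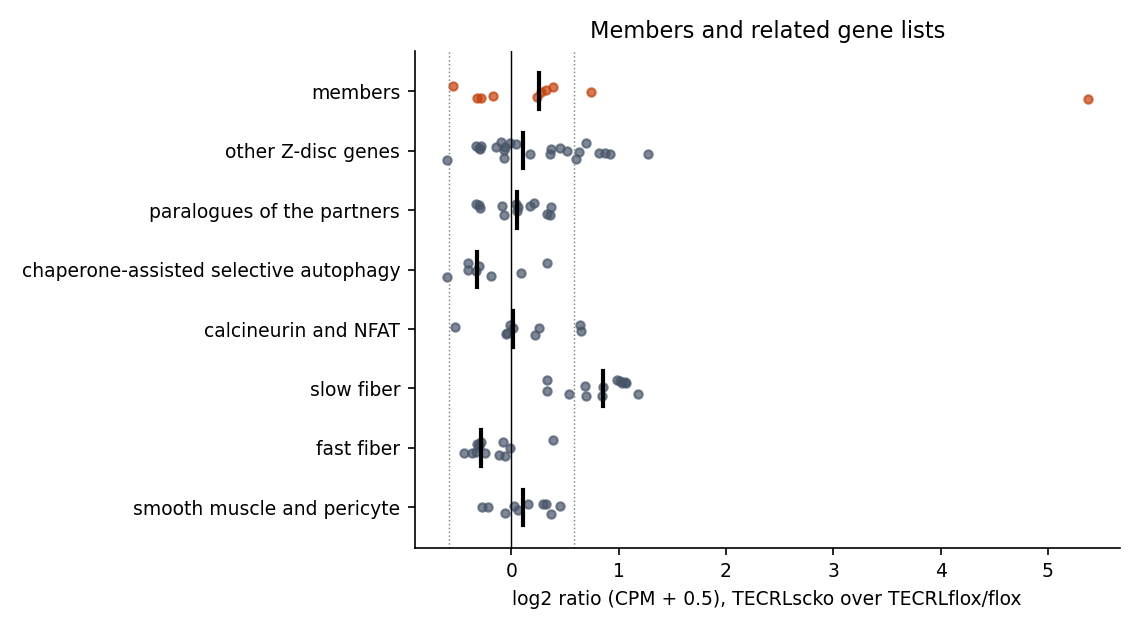
Log2 ratio (CPM plus 0.5), TECRLscko over TECRLflox/flox, of the members (orange) and of the genes compared in 7 related lists (grey), with the median of each as a bar and dotted lines at 1.5-fold. The slow fiber genes lie above 0 with a median of 0.86, and the median of each other list lies between -0.32 and 0.11.

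Since synaptopodin 2 is also a smooth muscle protein, markers of the other cells in the tissue were set beside it. The 11 smooth muscle and pericyte markers summed to 846 CPM in the TECRLscko library and 728 CPM in the TECRLflox/flox library, 1.16-fold higher. Of the 10 compared, 7 were above the TECRLflox/flox library (48.2% of all genes were) and none reached 1.5-fold. The smooth muscle myosin Myh11 had 713 counts in the TECRLscko library and 680 in the TECRLflox/flox library. Counts of Synpo2 per count of Myh11 were 18.0 in the TECRLscko library and 0.529 in the TECRLflox/flox library. None of these markers was at 0, and the lowest, Actg2, had 6 counts in the TECRLscko library and 4 in the TECRLflox/flox library. Among the other cell types, the adipocyte and tenocyte lists differed most. Adipocyte markers summed to 19.0 CPM in the TECRLscko library and 41.6 CPM in the TECRLflox/flox library. Of the 5 compared, 4 were at least 1.5-fold lower (3.88% of all genes were). Tenocyte markers summed to 147 CPM in the TECRLscko library and 108 CPM in the TECRLflox/flox library. Of the 6 compared, 4 were at least 1.5-fold higher (9.24% of all genes were). The sums of the other 5 lists lay closer together. They were 155 CPM in the TECRLscko library and 185 CPM in the TECRLflox/flox library for satellite cells, and 1907 CPM in the TECRLscko library and 2073 CPM in the TECRLflox/flox library for fibroblasts and fibro-adipogenic progenitors. Endothelial markers summed to 544 CPM in the TECRLscko library and 524 CPM in the TECRLflox/flox library. For macrophages the sum was 140 CPM in the TECRLscko library and 173 CPM in the TECRLflox/flox library, and for Schwann cells 70.6 CPM in the TECRLscko library and 82.6 CPM in the TECRLflox/flox library. Of their markers only Lep, in adipocytes, was at 0 in the TECRLscko library, with 11 counts in the TECRLflox/flox library. The part of cell composition in the values of Synpo2 and the other members was not tested.

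The genes with the log2 ratio nearest that of Synpo2 (5.37), over these 2 libraries and among named genes averaging 5 CPM or more, included Zbtb20 (5.14), the Myh14 model mentioned above (6.07), Cish (4.25) and Fam102b (3.95). The likeness is the size of the difference between 2 libraries and nothing more.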

How the data were processed

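Per the file headers, the authors deposited raw counts and FPKM of each gene for both libraries. The deposited counts are unnormalized whole numbers. The authors' FPKM are counts scaled to gene length and library size: their implied length was the same, within 1%, between the libraries for 100% of 13061 genes, and it equalled the summed length of all distinct GENCODE M21 exons for 5 of the 10 members. The submitters' processing notes name GRCm38, StringTie 1.3.0, HISAT2 2.0.4 and CASAVA; the counter and its strand setting are not stated there. Coordinates are as deposited, and 7 members have the same ones in GENCODE M21.

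TMM factors from edgeR 4.0.16 (R 4.3.3) scaled the counts, 0.977 for the TECRLscko and 1.02 for the TECRLflox/flox library. A gene's fold is its plain CPM ratio, with a 95% Clopper-Pearson interval given its summed count (exact; scipy 1.17.1). Log2 ratios add 0.5 CPM to both values, which understates the difference of low genes, and genes averaging 1 CPM or more were compared. Without molecular identifiers, reads are not independent molecules and intervals cover counting error only. Trends with the length and then the GC content of the longest annotated transcript were removed by lowess (span 0.3, statsmodels 0.14.6) for 12524 genes. The ratios, intervals and 2-fold calls were tested on simulated counts, and the TMM factors and the lowess correction were not. The simulated counts held counting error only, so that test checks the calculation and says nothing on variation between mice or library preparations. The members, the 15 gene lists and the alternatives were chosen with earlier results of these data known. Named genes are the members, at most 5 of each list by ratio or expression, the 5 genes nearest Synpo2 in ratio, genes within 250 kb of a synaptopodin gene, and Tecrl; some genes that this rule takes are not reported here, and genes named beyond it were chosen after their values were seen.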

Additional observations from a re-analysis of the deposited data

How the results depend on the processing

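No paired analysis was possible because there was 1 library in each group and no test; leaving out a replicate was not possible for the same reason. The log2 ratio of Synpo2, 5.37, was 4.68 with the deposited FPKM, 4.77 with FPKM centred on its median, 5.02 after correction for transcript length and 5.01 after correction for length and GC content, and between 5.31 and 5.40 under the other settings. A pseudocount of 0.5 weighs more on an FPKM of 0.817 than on 18.2 CPM; otherwise the cause was not tested. The count of members at least 2-fold higher, 1, was 2 under the 1.5-fold rule, which is looser, and 1 under the other 11 settings; the count of members at least 2-fold lower was 0 under all 12. Flnc (0.24) turned to -0.11 after correction for length alone, which takes away the trend of ratios with transcript length. Its longest annotated transcript has 9038 bases. Why ratios went with length was not tested. The other 9 members kept their direction under all 9 settings, with Myoz1 between -0.35 and -0.01. Over all genes, the counts at least 2-fold higher and lower, 286 and 100, were 68 and 56 with FPKM, 107 and 46 with centred FPKM (9503 genes each) and 1161 and 487 at 1.5-fold; 146 were higher after correction for length and GC content, and 65 lower at a mean of at least 5 CPM (9700 genes). Depth limits Tecrl and the rarest markers, not the members, whose lowest count is 360.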

Other observations

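Myozenins are also known as calcineurin-binding proteins. The calcineurin and NFAT genes had a median log2 ratio of 0.02 over 9 genes (between -0.05 and 0.05 under the alternatives). Of these genes 5 were above the TECRLflox/flox library (48.2% of all genes were). At least 1.5-fold higher in the TECRLscko library were 2 of them, beside 9.24% of all genes, and lower none, beside 3.88%. Rcan1, a regulator of calcineurin whose gene is itself a calcineurin target, had 2399 counts in the TECRLscko library and 1818 in the TECRLflox/flox library, 1.57-fold higher, and a log2 ratio of 0.65 (0.86 once corrected for length and GC). Ppp3ca, a catalytic subunit of calcineurin, had 2875 counts in the TECRLscko library and 2204 in the TECRLflox/flox library, 1.56-fold higher, and a log2 ratio of 0.63 (0.47 after the correction, below 1.5-fold). Ppp3cb, the other abundant catalytic subunit and a neighbour of Synpo2l, stood at -0.05 and the regulatory subunit Ppp3r1 at -0.01. The lowest of the list was Nfatc4, on 82 counts in the TECRLscko library and 145 in the TECRLflox/flox library, at -0.52.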
